A study of Saccharomyces cerevisiae with 2 samples.

Results

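The small subunit processome is the large nucleolar particle that forms on the precursor of ribosomal RNA and folds and cuts it to release the precursor of the 40S ribosomal subunit. A listed set of 43 budding yeast genes for its proteins and for other 40S assembly factors is described here, chosen by systematic gene name for what their proteins do, under a rule that uses no measured value but was set with earlier results of these data known. All 43 had a row among the 6207 gene features of the array table, and 41 had a value in each of the comparisons. UTP22 (YGR090W), of the UtpC subcomplex, and RRP5 (YMR229C), a factor that works on both ribosomal subunits, had no value in either. Of all gene features, 14.5% had no value in the deletion comparison and 21.4% in the alpha factor comparison.

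Two-colour arrays, on which RNAs labelled with Cy3 and Cy5 compete for the same spots, were used to compare RNA from Saccharomyces cerevisiae. The first comparison set a strain deleted for MSG5 against the wild type, the laboratory strain BY4741, neither of them given pheromone. The second set msg5 delta cells given alpha factor for 90 min against msg5 delta cells without it, so both of its cultures carried the deletion. MSG5 encodes a phosphatase of mitogen-activated protein kinases, and alpha factor is the mating pheromone that cells of mating type a sense. The cultures were kept at 24 °C and 200 rpm in YPD, a rich medium, after dilution to an optical density of 0.2. Those of the first comparison grew on for 2.5 h and were collected 120 min later, and those of the second grew on for 4 h and were collected 90 min later. The labels give the alpha factor concentration as 50 mM, a unit that no other source here bears out. They say neither how the deletion was made nor how many clones were used.

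For each comparison 2 biological samples were hybridised with swapped dyes to 4 arrays, which the authors condensed to 1 log ratio per feature. No spread between arrays was given, so there is no replicate error, no test was possible and every value is a description. The nearest view of error came from genes with more than 1 feature: the median gap between such features was 0.20 in log2 for 25 genes measured in the deletion, and 0.29 for 24 genes measured with alpha factor. The 90th percentile of the gap was 0.53 in the deletion and 0.58 with alpha factor, and the largest gap 0.61 and 0.68. MSG5 itself had a log2 ratio of -2.51 in the deletion comparison, the lowest of 5308 values. Ratios of the deletion comparison are deletion over wild type, from the sample title. Ratios of the other are likely treated over untreated, since the pheromone-induced genes FIG1, AGA1 and MFA1 stood at 2.38, 1.39 and 1.34. These ratios are taken as log2, which is less certain for the alpha factor values. All ratios are of RNA, also where a gene is described by its protein. Ratios show no levels, so mating type could not be read from them, and less transcript in every cell cannot be told apart from fewer cells that hold it.

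Assembly starts while ribosomal RNA is still being transcribed. The UtpA proteins bind the leading end of the transcript, followed by UtpB, the U3 small nucleolar RNA with its box C/D proteins, and the Mpp10 complex, and GTPases, helicases and modifying enzymes then drive cleavage and release. Genes for these factors belong to the ribosome biogenesis group, which in yeast is known to be turned up and down together with growth.

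In the deletion, these genes lay low as a set. Their median log2 ratio was -0.26 over 41 genes, against -0.07 over the 5267 other gene features, a difference of -0.20. Values below 0 were found for 39 of the 41, where 62.7% of the other features were below 0, and 33 lay below the median of the other features. Their quartiles were -0.41 and -0.14. The median gap between features of 1 gene, 0.20, is a scatter of single values and does not measure the error of a median over 41 genes. At a log2 change of at least 0.322 either way, 15 genes were lower and 1 higher, where 13.9% of the other features were lower and 7.01% higher. At 1.5-fold, by the listed feature of each gene, 3 were lower and 1 higher, where the other features gave 3.19% and 2.85%. RCL1, BMS1 and UTP8 were on the low side and UTP20 on the high side. The 2 beyond 2-fold were both lower, where 0.247% of the other features were as low.

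**Figure D1:**
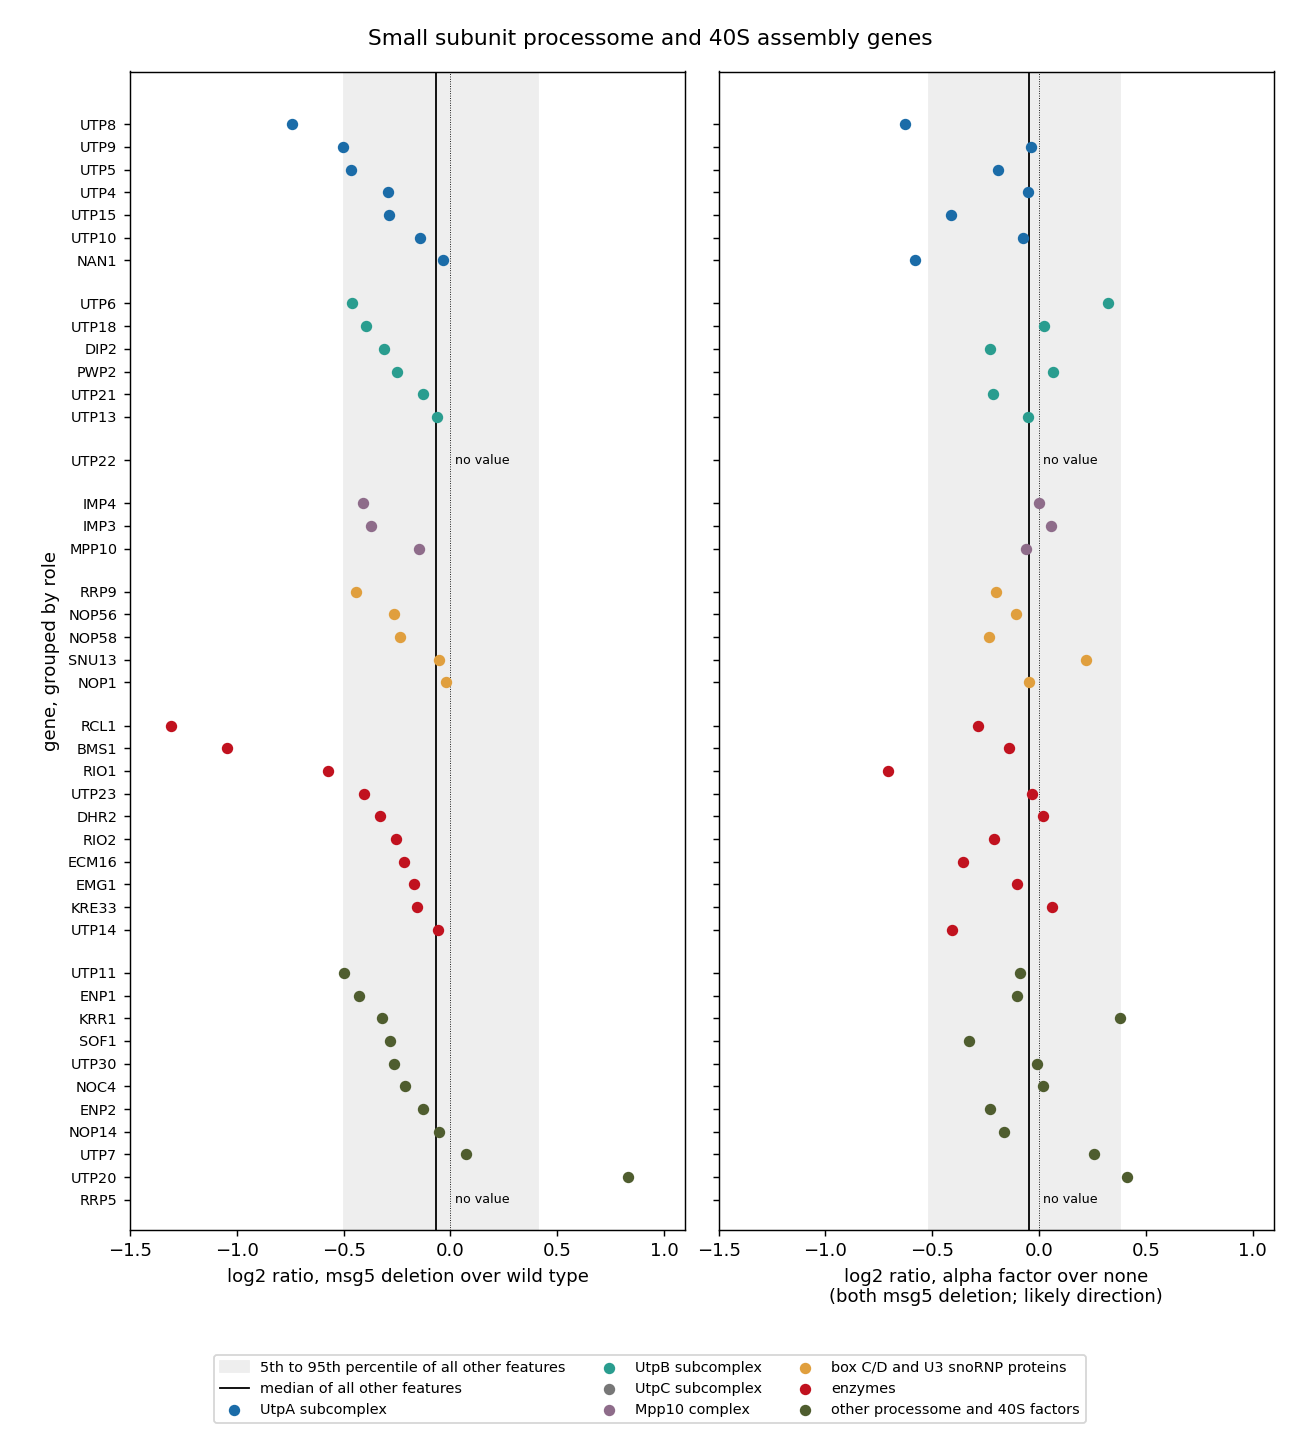
Log2 ratio of each of the 43 genes, grouped by role, in the deletion (left panel) and with alpha factor (right panel). Each point is 1 condensed value with no replicate error, the grey band spans the 5th to the 95th percentile of all other gene features, and the black line is their median. In the left panel RCL1 (-1.31), BMS1 (-1.04) and UTP8 (-0.74) lie farthest to the left and UTP20 (0.83) alone to the right of the band. In the right panel RIO1 (-0.71), UTP8 (-0.63) and NAN1 (-0.58) lie to the left of it and UTP20 (0.41) to the right.

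The lowest values in the deletion belonged to a GTPase and the protein it carries. RCL1 (YOL010W), a protein related to RNA cyclases that takes part in the cleavage that separates the 2 subunit precursors, had a log2 ratio of -1.31, which is 2.48-fold lower. BMS1 (YPL217C), the GTPase that binds Rcl1 and brings it to the particle, had a log2 ratio of -1.04, which is 2.06-fold lower. Of 5308 features with a value, 7 were at or below RCL1 and 13 at or below BMS1. With alpha factor the pair stood at -0.29 and -0.14, inside the band that holds the middle of the other features. Without the pair the median of the set in the deletion was -0.26 over 39 genes. Of these, 1 gene (2.56%) was at least 1.5-fold lower, where 3.19% of the other features were.

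The proteins of UtpA bind the start of the ribosomal RNA transcript, and several of them are also needed for its transcription. Their 7 genes all had log2 ratios below 0 in the deletion, where 62.7% of the other features did, with a median of -0.29. UTP8 (YGR128C) was lowest at -0.74, followed by UTP9 (YHR196W) at -0.50 and UTP5 (YDR398W) at -0.47. UTP4 (YDR324C) and UTP15 (YMR093W) stood at -0.29 each, UTP10 (YJL109C), a long protein of helical repeats, at -0.14 and NAN1 (YPL126W), also called UTP17, at -0.03. NAN1 thus lay above the median of the other features, and the others below it.

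UtpB, the next subcomplex to join, had a median of -0.28 over 6 genes in the deletion. By the listed feature of each gene, none of them reached 1.5-fold, where 3.19% of the other features were lower and 2.85% higher. UTP6 (YDR449C) stood at -0.46, UTP18 (YJL069C), which recruits the RNA exosome, at -0.39, and DIP2 (YLR129W), also called UTP12, at -0.31. PWP2 (YCR057C), also called UTP1, stood at -0.25, UTP21 (YLR409C) at -0.13 and UTP13 (YLR222C) at -0.06. PWP2 was the only gene of the set with further features under older names. YCR055C read -0.15 and YCR058C -0.63 beside -0.25 for YCR057C, so 3 readings of 1 gene spanned a range wider than that between the quartiles of the whole set. YCR058C alone was past 1.5-fold, and both features under older names were counted among the other features.

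All 3 genes of the Mpp10 complex were below 0 in the deletion, where 62.7% of the other features were. IMP4 (YNL075W) stood at -0.41 and IMP3 (YHR148W) at -0.37, and both proteins help the U3 RNA pair with the ribosomal RNA precursor. MPP10 (YJR002W), the protein that holds them together, stood at -0.15. The U3-specific protein gene RRP9 (YPR137W) was lowest of its group at -0.44. The core box C/D proteins act in many guide RNA particles and not only with U3, and their 4 genes had a median of -0.14. Among these NOP56 (YLR197W) and NOP58 (YOR310C), the paired scaffold proteins, stood at -0.26 and -0.23. SNU13 (YEL026W), which also serves in the spliceosome, stood at -0.05 and NOP1 (YDL014W), the methyltransferase fibrillarin, at -0.02, both above the median of the other features.

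Apart from RCL1 and BMS1, the 8 enzymes and enzyme-like factors had a median of -0.23 in the deletion. RIO1 (YOR119C) and RIO2 (YNL207W), atypical kinases of late 40S maturation, stood at -0.57 and -0.25. RIO1 lay just short of 1.5-fold. UTP23 (YOR004W), which has the fold of a nuclease, stood at -0.41 and the RNA helicase gene DHR2 (YKL078W) at -0.33. ECM16 (YMR128W), also called DHR1, encodes the helicase that strips U3 from the particle, and stood at -0.22. Its activator UTP14 (YML093W) stood at -0.06. EMG1 (YLR186W), a methyltransferase, and KRE33 (YNL132W), an RNA acetyltransferase, which both modify the small subunit RNA, stood at -0.17 and -0.16.

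Among the remaining structural factors in the deletion, UTP11 (YKL099C) stood at -0.50, ENP1 (YBR247C), which stays with the particle into the cytoplasm, at -0.43, and KRR1 (YCL059C), an RNA-binding protein with KH domains, at -0.32. The repeat protein gene SOF1 (YLL011W) stood at -0.28 and UTP30 (YKR060W) at -0.26. NOC4 (YPR144C) and NOP14 (YDL148C), whose proteins bind each other, stood at -0.21 and -0.05, and ENP2 (YGR145W) at -0.13. UTP7 (YER082C) at 0.07 and UTP20 (YBL004W) at 0.83 were the only genes of the set above 0. The RNA of UTP20, which encodes a very long helical repeat protein, was 1.78 times that of the wild type, and 68 of 5308 features were at or above it. The gap between UTP20 and UTP7, the next gene below it, was 0.76 in log2.

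With alpha factor, the set lay close to the other features. Its median was -0.09 over 41 genes, against -0.05 over 4836 other features. Below 0 were 29 of 41, where 58.3% of the other features were, and 25 lay below the median of the others. At a log2 change of at least 0.322, 7 genes were lower and 3 higher, where 12.8% and 6.76% of the other features were. With the values taken as log2, 2 were lower and none higher at 1.5-fold, where 3.31% and 1.82% of the other features were. None then reached 2-fold, where 0.372% were lower and 0.414% higher. The count at 2-fold was not made for natural logarithms. All directions in this comparison would turn if the ratio ran the other way.

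RIO1 had the lowest log2 ratio of the set with alpha factor, -0.71, which is 1.63-fold lower, and UTP8 followed at -0.63. NAN1 at -0.58 lay just short of 1.5-fold. UtpA had a median of -0.19 over 7 genes, all below 0, where 58.3% of the other features were. UTP15 stood at -0.41, UTP5 at -0.19, UTP10 at -0.08, UTP4 at -0.05 and UTP9 at -0.04. UtpB had 3 of 6 genes below 0 and a median of -0.01. Within it UTP6 stood at 0.32, PWP2 at 0.07 and UTP18 at 0.02, and UTP13, UTP21 and DIP2 at -0.05, -0.22 and -0.23. The difference between these subcomplexes was not tested.

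The helicase ECM16 and its activator UTP14 stood at -0.36 and -0.41 with alpha factor, and SOF1 at -0.33. RIO2 stood at -0.21, EMG1 at -0.11, UTP23 at -0.03, DHR2 at 0.02 and KRE33 at 0.06. The Mpp10 complex was near 0, with MPP10 at -0.06, IMP4 at 0.00 and IMP3 at 0.06. Of the U3 and box C/D proteins, NOP58 stood at -0.23, RRP9 at -0.20, NOP56 at -0.11, NOP1 at -0.04 and SNU13 at 0.22. At the upper end UTP20 stood at 0.41, KRR1 at 0.38 and UTP7 at 0.26. The remaining factors ran between -0.23 for ENP2 and 0.02 for NOC4, with NOP14 at -0.17, ENP1 at -0.10, UTP11 at -0.09 and UTP30 at -0.01.

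Set side by side, the values of single genes took several forms. UTP8 (-0.74 in the deletion and -0.63 with alpha factor) and RIO1 (-0.57 and -0.71) were lower by at least 0.322 in log2 in each comparison. Of the other features, 13.9% were as low in the deletion, and with alpha factor 12.8% were as low and 6.76% as high. The share of them past the limit in both comparisons was not computed. UTP6 (-0.462 and 0.324) was past the same limit downward in the deletion and upward with alpha factor. KRR1 (-0.320 and 0.378) lay just short of it in the deletion. NAN1 (-0.03 and -0.58) and UTP14 (-0.06 and -0.41) were near 0 in the deletion and low with alpha factor, whereas RCL1 (-1.31 and -0.29) and BMS1 (-1.04 and -0.14) were much farther from 0 in the deletion. UTP20 (0.83 and 0.41) and UTP7 (0.07 and 0.26) were above 0 in each. The comparisons used cultures of different age, and both include untreated msg5 delta cells, once as numerator and once as denominator.

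**Figure D2:**
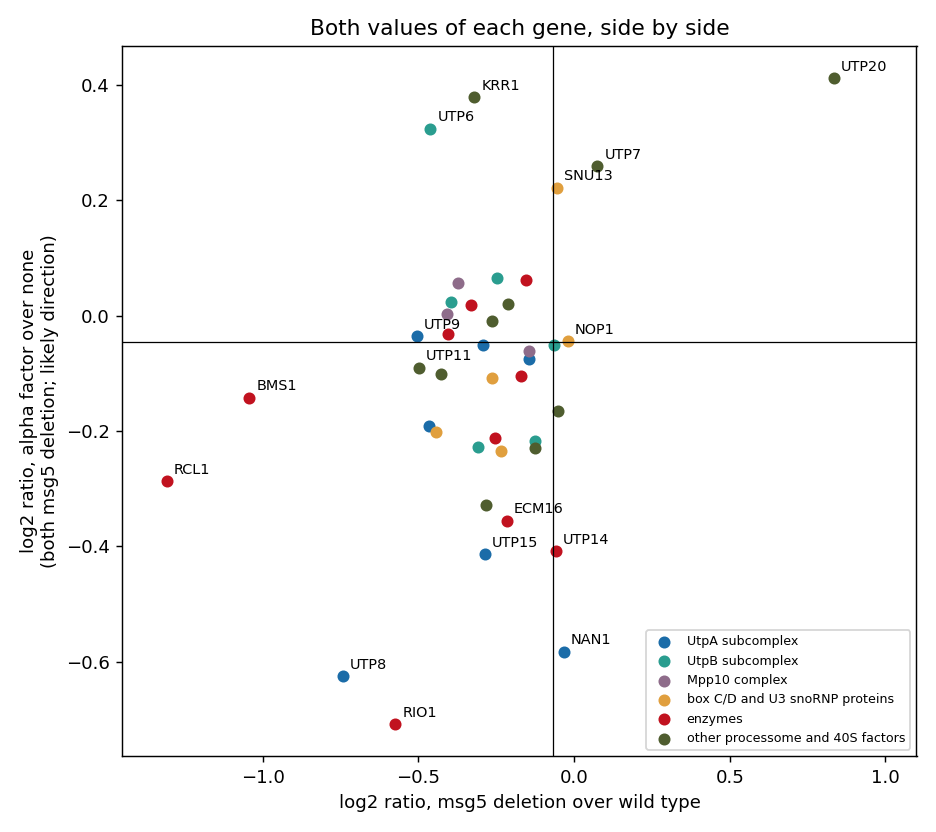
Both values of each of the 41 measured genes, with the log2 ratio in the deletion on the horizontal axis and with alpha factor on the vertical axis, coloured by role. Black lines mark the median of all other gene features, -0.07 and -0.05. RCL1 and BMS1 stand out to the left, UTP8 and RIO1 at the lower left, NAN1 at the bottom and UTP20 at the upper right.

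Lists of other assembly factors and of RNA polymerase I gave medians near that of the set in the deletion, and the short box H/ACA list a lower one. A list of 40S assembly factors outside the set had a median of -0.22 over 44 genes. In it, 13 were lower and 1 higher by at least 0.322, where 13.9% and 7.01% of all features outside the set were. Its lowest genes were RRP36 at -0.65, SLX9 at -0.63 and FAL1 at -0.47, and its highest MRD1 at 0.60, CMS1 at 0.25 and LCP5 at 0.15. Assembly factors of the 60S subunit had a median of -0.22 over 63 genes, between RSA4 at -0.50 and MAK5 at 0.10. None of them reached 1.5-fold, where 3.19% of the features outside the set were lower and 2.85% higher. RNA polymerase I and its factors, which transcribe ribosomal RNA, had a median of -0.28 over 14 genes, between RRN3 at -0.54 and RRN5 at 0.28. The box H/ACA proteins, the pseudouridine counterpart of the box C/D proteins, had a median of -0.41 over 3 genes, between CBF5 at -0.42 and GAR1 at -0.11.

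The genes for proteins of the ribosome itself did not lie as low. Cytosolic 40S ribosomal protein genes had a median of -0.04 over 52 genes in the deletion, between RPS12 at -0.52 and RPS2 at 0.25, and 60S ones -0.02 over 76, between RPL26B at -0.87 and RPL1B at 0.20. General stress genes, which often run opposite to ribosome synthesis in yeast, had a median of 0.43 over 17 genes, with 8 at least 1.5-fold higher, where 2.85% of the features outside the set were, and ran between HSP104 at -0.12 and TPS2 at 0.94. Whether a difference in growth or stress between the cultures had a part in the low values of the set was not tested.

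With alpha factor the order differed. Other 40S assembly factors had a median of -0.07 over 46 genes, with RRP12 at -0.72, RRP3 at -0.42 and RRP36 at -0.31 lowest and ESF2 at 0.28, FCF2 at 0.27 and NOP6 at 0.23 highest. The 60S factors had a median of -0.03 over 63 genes, between NOP4 at -0.97 and REI1 at 0.49. RNA polymerase I and its factors stood at a median of -0.05 over 12 genes, between RPA135 at -0.85 and RPA12 at 0.17, and the box H/ACA proteins at -0.21 over 3, between CBF5 at -0.32 and GAR1 at 0.10. Ribosomal protein genes had medians above 0: 0.10 over 53 genes of the 40S subunit, between RPS8A at -0.29 and RPS29A at 0.36, and 0.13 over 77 of the 60S subunit, between RPL43B at -0.33 and RPL42B at 0.43. General stress genes had a median of -0.10 over 13 genes, between YGP1 at -1.11 and GLC3 at 0.41.

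**Figure D3:**
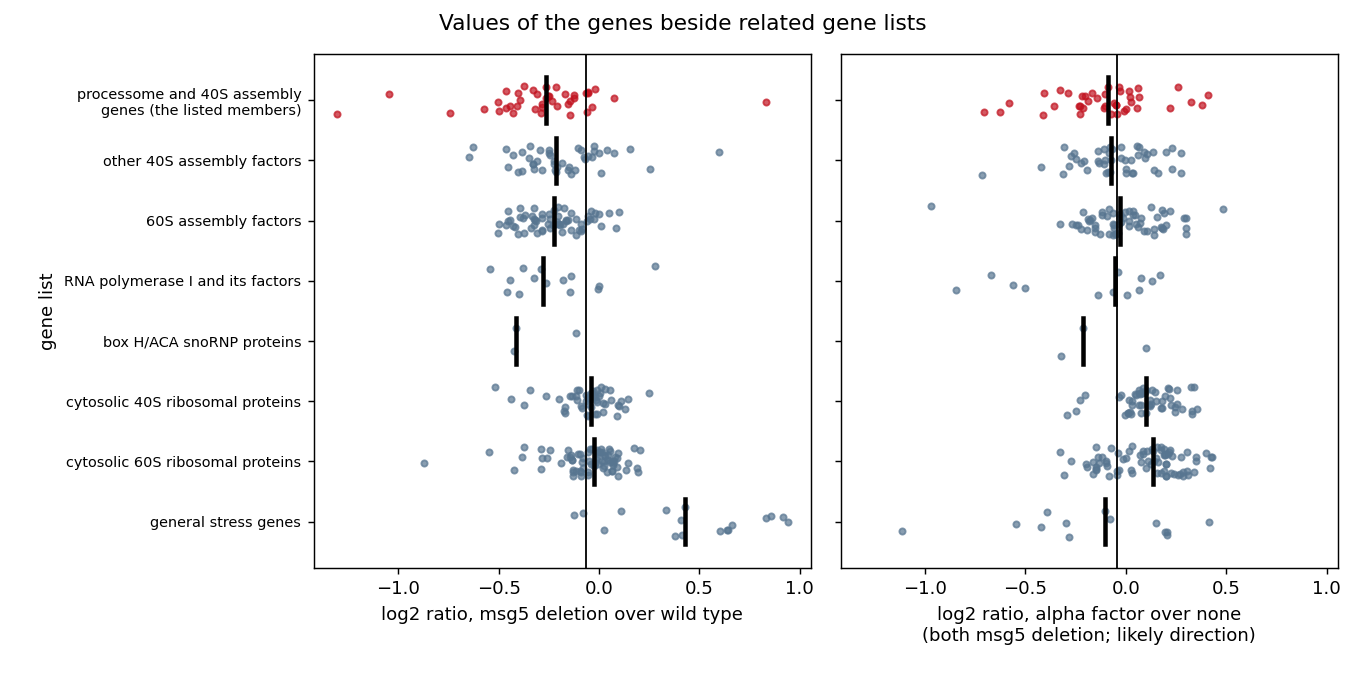
Log2 ratios of the measured genes of the set (top row, red) and of related gene lists (blue) in the deletion (left panel) and with alpha factor (right panel). Points are genes, thick bars are list medians and the vertical line is the median of all other gene features. In the left panel the top rows, of assembly factors, centre between -0.26 and -0.22, and both rows of ribosomal proteins near 0.

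Each gene was also set beside its nearest protein-coding neighbour on either side of it on the chromosome, taken from the R64 gene table. The 80 measured neighbours, none of which is in the set, had a median of -0.06 in the deletion, against -0.26 for the genes beside them. The gene of the set was the lower one in 55 of 76 pairs. A gene of the set can enter a pair on each side, so the pairs are not independent. The same share for genes outside the set was not computed. Neighbours that share an upstream region with a gene of the set, being transcribed away from it, had a median of -0.06 over 16 genes. With alpha factor the 74 measured neighbours had a median of -0.02.

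Values at single loci varied, and those given here were picked after they were seen. RCL1 and BMS1 each face a gene transcribed toward them: MDM12, of a membrane contact site of mitochondria, stood at -0.74 beside RCL1, and SAR1, a GTPase of vesicle budding, at -0.61 beside BMS1. They were the lowest of the 21 measured neighbours facing a gene of the set in the deletion. PLB3, upstream of RCL1, stood at 0.19. Low neighbours also lay beside genes of the set that were nearer to 0 than RCL1 and BMS1. PRM10, a pheromone-regulated gene and the lowest of all measured neighbours, stood at -1.16 and GZF3 at -0.58, on either side of UTP10 at -0.14. CTR86 stood at -0.70 beside PWP2, which at -0.25 was near the median of the set. KRR1 at -0.32 in the deletion and 0.38 with alpha factor lay between MRC1, a replication checkpoint gene, at -0.35 and 0.33, and FYV5 at -0.26 and 0.27. NAN1, at -0.58 with alpha factor, lay between HHO1, for linker histone, at -0.52 and KAP120, a nuclear transport receptor gene, at -0.42. The labels do not say whether the probes distinguish strands, and the part of neighbouring transcripts in these values was not tested. RIO1 and the gene it shares an upstream region with, GCY1, a reductase gene, had opposite signs: RIO1 stood at -0.57 and -0.71, and GCY1 at 0.72 and 0.40.

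**Figure D4:**
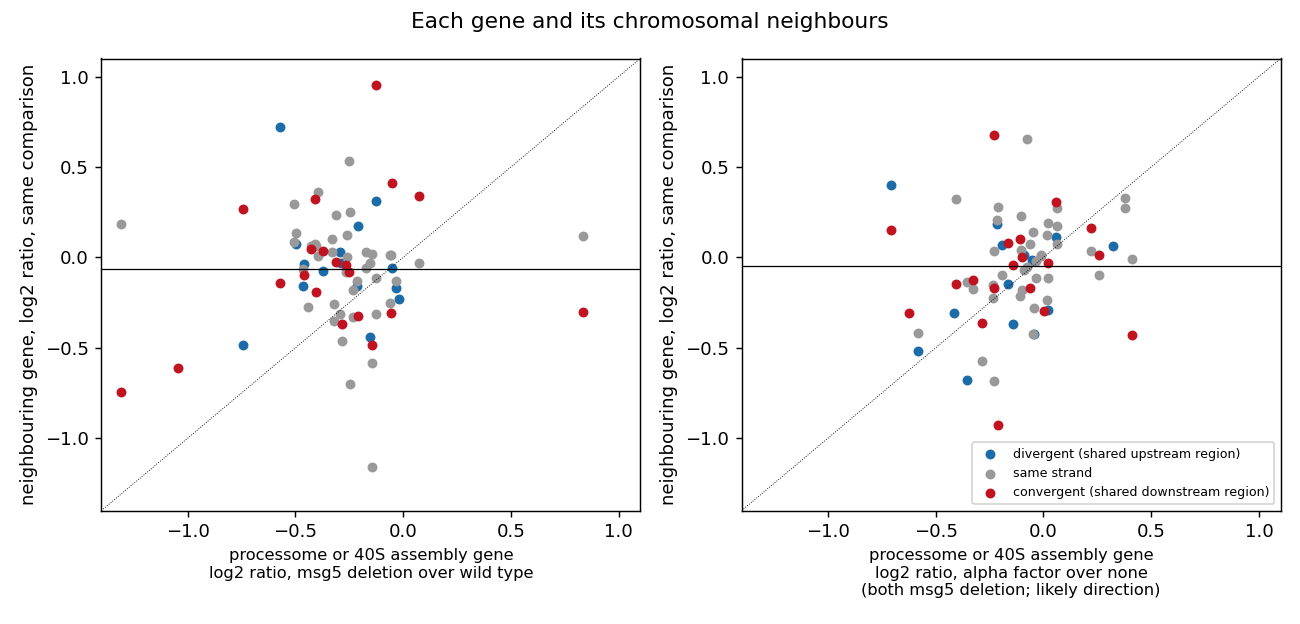
Log2 ratio of each gene of the set (horizontal axis) and of its chromosomal neighbours (vertical axis) in the deletion (left panel) and with alpha factor (right panel), coloured by orientation. The horizontal line is the median of all other gene features and the dotted line marks equal values. In the left panel most points lie above the dotted line, and the 2 red points at the far left are RCL1 with MDM12 and BMS1 with SAR1.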

How the data were processed

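The authors condensed 4 arrays per comparison to 1 deposited value per feature, per the series design text. The deposited values are log ratios whose base is not stated, taken here as log2. Images were segmented with GenePix Pro 5.0, per the labels. Normalization, filters, array probes and build: not given in the sources used here. Ratios with 3 decimals turned into base 2 logarithms matched 100% of the deletion values within 5.5e-05, against 7.98% of those with alpha factor. Spot intensities were not used here, and precision is limited by how few arrays there were. Of 6207 gene features, 5654 matched the R64 gene table by locus tag, 57 by an older name, and 496 did not match. Medians, counts past 1.5- and 2-fold and a log2 change of 0.322 and ranks were computed with Python 3.11.15 and pandas 2.3.3. All other gene features were the background. The genes of the set and all lists were chosen with earlier results of these data known. Every gene of the set is named. From the other 40S factors the 3 lowest and 3 highest are named, and from each further list the lowest and highest; neighbours were singled out after their values were seen. Alternatives changed the centring, the background, the row-order trend, the fold threshold, the direction and the log base. A planned search of promoters was not made.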

Additional observations from a re-analysis of the deposited data

How the results depend on the processing

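With 1 condensed value per gene, no replicate could be left out. No paired analysis was possible because the columns carry no replicates. In the deletion, the median of the set ran between -0.28 and -0.20 over the alternatives run. It was -0.20 after centring, where the other features stood at 0.00, and -0.20 after adjustment for row order, which put 36 genes below the other features, against 33 as deposited. The count of genes at least 1.5-fold lower was 3, where 3.19% of the other features were as low. It was 15 at a log2 limit of 0.322, where 13.9% of the others were. In a setting chosen after seeing the data, it was 1 of 39 without BMS1 and RCL1, where 3.19% of the others were. The count higher was 1, where 2.85% of the others were, and 0 at 2-fold, where 0.835% were. With alpha factor 2 genes were at least 1.5-fold lower, where 3.31% of the other features were as low. The count became 1 after centring (2.79% of the others), 1 after adjustment for row order (2.69%) and 1 without RIO1 (3.31%). It became 0 at 2-fold (0.372%), 7 at the limit of 0.322 (12.8%) and 5 if the values are natural logarithms (8.85%). The count higher, 0 (1.82% of the others), became 3 at the limit of 0.322 (6.76%) and 1 with natural logarithms (4.63%). With the sign turned, the median was 0.0901 and 16 genes lay below the median of the other features. At 1.5-fold, 0 were then lower and 2 higher, where 1.82% and 3.31% of the others were. Each alternative alters the values, the genes counted or the limit. The direction and log base of the alpha factor values are not stated in the sources used here.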

Other observations

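Gene length, taken as the span in the R64 table, varied widely in the set, between 381 bp for SNU13 and 7482 bp for UTP20, with a median of 1728 bp over the 43 genes and 1242 bp over the other matched features. As a description across genes, which are not independent replicates, Spearman's rho between length and log2 ratio was 0.29 over the 41 measured genes in the deletion and 0.04 over 4954 other features. With alpha factor it was -0.18 over the 41 genes and -0.22 over 4581 other features. Of 75 other measured features of at least 5000 bp, 13.3% were beyond 1.5-fold either way in the deletion, 6 of them higher and 4 lower, against 4.69% of 1832 features under 1000 bp. With alpha factor the shares were closer, 5.56% of 72 features, 2 of them higher and 2 lower, against 3.79% of 1795. UTP20 falls in the longest class, as do UTP10, at -0.14, and RRP5, which had no value.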
